A study of Mus musculus with 12 samples.

Results

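The genes described here encode the proteins of the mitochondrial respiratory chain and ATP synthase. They were chosen by symbol: those that start with Ndufa, Ndufb, Ndufc, Ndufs, Ndufv, Uqcr, Cox4 to Cox8, Atp5, mt-Nd, mt-Co, mt-Cytb or mt-Atp, together with Cyc1 and Cycs, without assembly factors and without symbols marked as pseudogenes. The rule found 101 of the 54446 gene identifiers in the count table. The mitochondrial DNA encodes 13 of them and the nucleus 88. Of the nuclear genes, 39 belong to complex I, 9 to complex III, 21 to complex IV and 18 to ATP synthase (complex V), and Cycs encodes the mobile carrier cytochrome c. The symbol Atp5o stands for 2 identifiers, of which 1 had no count in any library. The annotation lists 4 of the nuclear genes, Ndufa11b, Ndufb4c, Ndufs6b and Cox6c2, as processed pseudogenes although their symbols pass the rule.

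The respiratory chain passes electrons from NADH and other donors through complex I, ubiquinone, complex III and cytochrome c to complex IV, which reduces oxygen, and the proton gradient built on the way drives ATP synthase. Its subunits come from both genomes: the mitochondrial DNA encodes core subunits of complexes I, III, IV and V and is transcribed inside the organelle as long transcripts that are then cut, while all other subunits are made from nuclear genes and imported. Macrophages that meet lipopolysaccharide (LPS), a bacterial cell wall component sensed by Toll-like receptor 4, are known to turn from respiration towards glycolysis, in part through nitric oxide, which blocks the chain.

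RNA was sequenced from macrophages that had been grown out of mouse bone marrow with recombinant M-CSF, and the series asks how loss of NLRC3, a regulatory NOD-like receptor, bears on glycolytic genes under LPS. All mice carried loxP-flanked Nlrc3 alleles. Mice without Cre are labelled wild type (WT), and mice with Cre under the myeloid LysM promoter are labelled knockout (KO). Cells received LPS for 12 h or stayed in medium, which gives 4 groups of 3 libraries: WT medium, WT LPS, KO medium and KO LPS. The age of the mice is not given in the labels, and whether replicates are separate mice is not stated there either, so p-values measure the spread between these libraries, which may be technical.

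A pair of sequence sets helps to read the values below. The first shows why counts of several mitochondrial genes are uncertain. Copies of mitochondrial DNA lie in a row on chromosome 1 (GRCm38), minus strand, and carry annotated genes of their own. mt-Co2 and its copy Gm28661 had the same base at all 681 aligned positions, mt-Co3 and Gm28437 at all 783, mt-Atp6 and Gm10925 at all 678, and mt-Nd4l and Gm10222 at all 294. mt-Nd3 and Gm28438 differed at 1 of 345 aligned positions, the substitution T3C, counted from 1 at the first base of mt-Nd3. The first 48 bases of that pair, from the GENCODE M21 transcripts (chrM:9459-9506, plus strand, and chr1:24613072-24613119, minus strand), are shown with the differing base in capitals.
mt-Nd3: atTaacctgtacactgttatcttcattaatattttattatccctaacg
Gm28438: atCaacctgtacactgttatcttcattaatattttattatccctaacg

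The second set shows the bases directly upstream of the start of Cycs and Atp5s, the members with the firmest changes. They come from the RefSeq table of GRCm38.p6, in which 67 of 87 nuclear symbols had a window of 250 bases before to 50 after the start, 72 windows in all. For Cycs the stretch is chr6:50566570-50566819, minus strand, and capitals mark a match to the NRF1 motif (GCGCANGCG) and one to the cAMP response element (TGACGTCA). For Atp5s it is chr12:69724695-69724944, plus strand, without a match to a motif searched.
Cycs: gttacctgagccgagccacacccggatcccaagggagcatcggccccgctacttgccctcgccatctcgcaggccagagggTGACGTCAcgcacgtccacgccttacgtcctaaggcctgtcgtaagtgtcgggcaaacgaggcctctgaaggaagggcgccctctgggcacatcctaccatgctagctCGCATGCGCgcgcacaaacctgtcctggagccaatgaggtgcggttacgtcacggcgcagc
Atp5s: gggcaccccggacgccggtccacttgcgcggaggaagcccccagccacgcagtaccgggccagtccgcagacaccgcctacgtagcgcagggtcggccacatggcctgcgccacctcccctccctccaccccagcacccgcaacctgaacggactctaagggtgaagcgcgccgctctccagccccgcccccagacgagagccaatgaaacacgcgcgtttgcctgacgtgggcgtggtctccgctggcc

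Motifs were searched on both strands of the whole windows, and matches of different motifs could overlap. NRF1, a factor known for its sites in respiratory chain genes, had its motif in 20 of the 72 windows (27.8%) and in 6.25% of the 32851 windows of all genes. The GABPA motif (CCGGAAG) was in 14 windows (19.4%, against 8.86% of all), the YY1 motif (AAGATGGCG) in 7 (9.72%, against 1.40%) and the cAMP response element in 5 (6.94%, against 1.79%). In Cycs the NRF1 match lay at bases -61 to -53 and the cAMP response element at -169 to -162, counted back from the start. These are matches of letters and describe the windows only.

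The libraries held 13082947 to 20960505 counts. A level is given in counts per 1000000 counts of the library (CPM), not scaled further, and 3 counts, taken as the floor, corresponded to 0.143 to 0.229 CPM, a limit that covers counting error only. Fold changes were scaled between libraries by trimmed-mean (TMM) factors, which ran from 0.703 to 1.46. All 8 macrophage markers were above 3 counts in every library. The targeted gene went against a label. Nlrc3 was at 0.796, 4.39 and 1.40 CPM in the WT LPS libraries (replicates 1, 2 and 3) and at 15.6, 8.29 and 6.04 in those labelled KO LPS. It stood at 9.89, 13.6 and 10.4 CPM in WT medium and at 0.996, 0.85 and 0.876 in the libraries labelled KO medium. Which part of Nlrc3 is flanked is not given in the sources used here, and the count covers the whole gene. Nos2, which makes nitric oxide and is induced by LPS, lay between 831 and 2717 CPM in WT LPS and in the libraries labelled KO medium, and between 0.689 and 8.35 CPM in WT medium and in those labelled KO LPS. Between the KO groups Nos2 thus ran opposite to the treatment labels. Whether the medium and LPS labels of the KO libraries were exchanged was not tested. If they were, each comparison with a KO group below, and the interaction, would mean something else, so the libraries are named by their label throughout.

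Levels per gene length, as the fragments per kilobase of gene and per 1000000 (FPKM) that the authors deposited, put 6 mitochondrial genes at the top of the 101. Over the 12 libraries mt-Co1, the catalytic subunit of complex IV, had a median of 2365 FPKM (472 to 4771), mt-Nd1 of complex I 1228 FPKM (635 to 2329) and mt-Cytb, the cytochrome b of complex III, 1045 FPKM (505 to 1808). mt-Nd2, mt-Nd5 and mt-Nd4 followed at medians of 480.9, 445 and 406 FPKM. The highest nuclear member was Cox6b1 of complex IV at a median of 257 FPKM (172 to 552). mt-Co1 lay above Cox6b1 in each of the 12 libraries, although its lowest library was under the highest of Cox6b1. mt-Nd4 did not: its lowest library, at 148 FPKM, was under the lowest of Cox6b1.

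The other 7 mitochondrial genes stood far lower, although most of them lie next to the high ones on the same DNA. Median levels were 15.3 FPKM for mt-Co2, 7.99 for mt-Co3, 6.95 for mt-Atp6, 1.13 for mt-Nd3 and 0.45 for mt-Nd4l. For these 5, which have copies on chromosome 1, 98.1% to 100% of the stretches of 31 bases occurred in another annotated gene. The copies had low counts as well: Gm28661 had 30 to 157 counts per library beside 77 to 654 for mt-Co2, and Gm10925 57 to 117 beside 52 to 132 for mt-Atp6. mt-Co1 shared 63.9% of such stretches and mt-Nd4, with a copy on chromosome 1 as well (Gm28439), 62.8%, and both stayed high, and mt-Nd1 shared none. How reads with several places in the genome were counted is not given in the sources used here, and its part in these levels was not tested. A low level did not always go with stretches shared with another annotated gene. mt-Nd6, the member encoded on the other strand, had a median of 18.8 FPKM with 7.36% shared. mt-Atp8 had 0 to 4 counts per library with 7.47% shared, all of it with mt-Atp6, which it overlaps. It lies between mt-Co2 and mt-Atp6, and the bases between their copies on chromosome 1 were not compared. Its low percent therefore does not show that it lacks a copy there. Copies outside annotated genes were not searched.

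**Figure D1:**
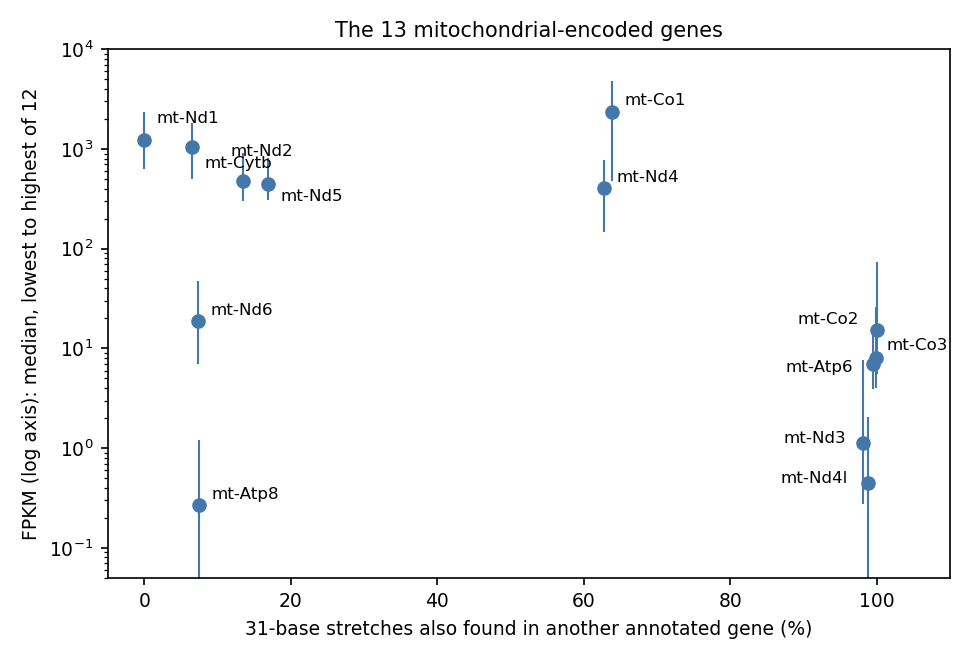
Median FPKM over the 12 libraries of each mitochondrial-encoded gene (log axis; lines run from the lowest to the highest library, and reach 0, below the axis, for mt-Nd4l and mt-Atp8) against the percent of its 31-base stretches found in another annotated gene. The 5 genes at 98.1% to 100% lie between 0.45 and 15.3 FPKM, while mt-Co1 and mt-Nd4, near 63%, lie at 2365 and 406.

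Nuclear members differed widely within each complex. In complex I the tested nuclear genes had a median level of 26.5 FPKM and ran from Ndufb2 at 0.416 to Ndufa1 at 83.7. Complex III was the narrowest, from the core protein Uqcrc1 at 25.6 FPKM to the hinge protein Uqcrh at 134. Complex IV ran from Cox6b2 at 0.453 FPKM to Cox6b1 at 257, and ATP synthase from Atp5s at 0.759 to the catalytic-head subunit Atp5a1 at 139. Cycs stood at 33.8 FPKM. In complex IV the isoforms known from other tissues were low: the testis form Cox6b2 lay at 0.453 FPKM against 257 for Cox6b1, and the muscle forms Cox6a2 and Cox7a1 at 1.36 and 1.42 FPKM against 198 for Cox6a1 and 80.4 for Cox7a2. Cox4i2 and Ndufa4l2, both known as hypoxia-induced forms, had 0 to 7 counts per library, and Cox8b 0 to 1. The 3 genes for the same c-subunit of ATP synthase stood at 6.90 FPKM (Atp5g1), 30.3 (Atp5g2) and 49.7 (Atp5g3).

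The 13 mitochondrial genes together took 1.38%, 1.07% and 1.39% of the counts in WT medium (1.28% ± 0.180, SD, n = 3). In WT LPS they took 0.754%, 0.703% and 0.657% (0.705% ± 0.0487). In the libraries labelled KO medium the share was 0.681%, 0.388% and 0.823% (0.631% ± 0.222), and in those labelled KO LPS 0.968%, 0.971% and 0.606% (0.848% ± 0.210). All 3 WT medium libraries lay above every other library, while the other 3 groups overlapped one another. These are shares of library totals, not scaled by the TMM factors. Those factors ran from 1.10 to 1.46 in WT medium and from 0.765 to 1.02 in WT LPS. They ran from 0.703 to 0.791 in the libraries labelled KO medium and from 1.20 to 1.24 in those labelled KO LPS. Once each share is divided by its library's factor, the order does not hold. The third library labelled KO medium, at 0.823% with a factor of 0.791, then lies above all WT medium libraries. The 88 nuclear genes took 0.544%, 1.16% and 0.575% in WT medium, 0.681%, 0.402% and 0.458% in WT LPS, 0.705%, 0.956% and 0.440% in those labelled KO medium, and 0.910%, 0.683% and 0.671% in those labelled KO LPS. Each of these groups overlapped WT medium.

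The ratio of nuclear to mitochondrial counts does not depend on how libraries are scaled. On the log2 scale it was -1.34, 0.12 and -1.28 in WT medium, -0.15, -0.81 and -0.52 in WT LPS, 0.05, 1.30 and -0.90 in the libraries labelled KO medium, and -0.09, -0.51 and 0.15 in those labelled KO LPS. The group means were -0.83 ± 0.823, -0.49 ± 0.331, 0.15 ± 1.11 and -0.15 ± 0.331 in that order (SD, n = 3). The spread inside WT medium and inside the KO medium label was as wide as any difference between the means, and the groups overlapped.

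**Figure D2:**
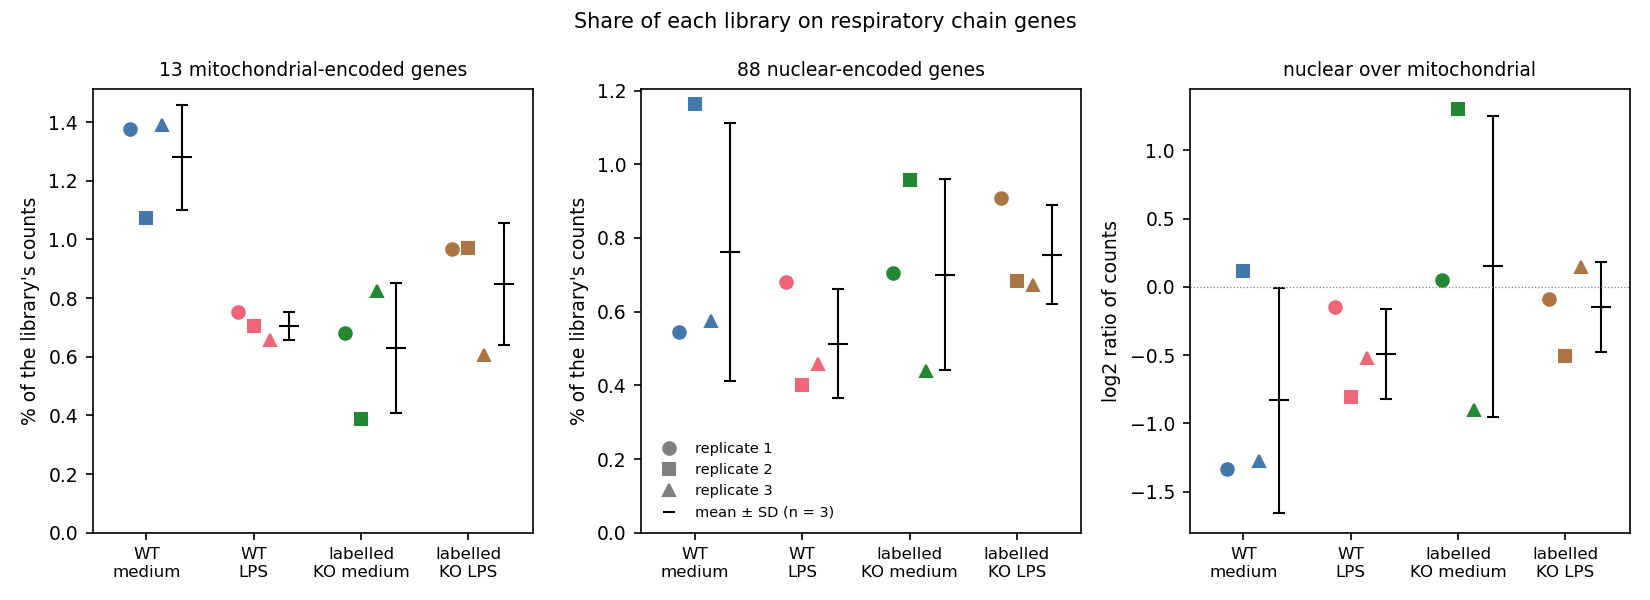
Percent of each library's counts on the 13 mitochondrial-encoded genes (left) and the 88 nuclear-encoded genes (middle), and the log2 ratio of the nuclear to the mitochondrial count (right), by labelled group; points are libraries, bars the mean ± SD of 3. Without scaling by the TMM factors, the mitochondrial share of WT medium, 1.07% to 1.39%, lies above all other libraries. Divided by those factors, the shares do not keep that order. The nuclear shares of the 4 groups overlap.

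LPS in WT cells left most of the chain without a called change. Of the 13773 genes tested, 18.3% were called at an adjusted p under 0.05, against 2 of the 80 nuclear members that could be tested. Cycs rose and Atp5s fell. None of the 11 tested mitochondrial genes was called by the edgeR quasi-likelihood test, none had an unadjusted p under 0.05, and DESeq2 called 1, mt-Nd5 (adjusted p = 0.0355). The median log2 fold was -0.09 over the nuclear members, -0.30 over the mitochondrial ones and -0.06 over all genes tested. By complex the nuclear medians were -0.13 for complex I, 0.01 for complex III, 0.02 for complex IV and -0.15 for complex V. The median standard error of a nuclear member's log2 fold was 0.53, within a range of 0.204 to 0.986, against 0.436 over all genes tested. On simulated counts, with 100 genes changed 2-fold and 100 changed 4-fold in WT LPS, the test recovered 7% and 68% of them. Far fewer genes were changed there than were called here, which makes the adjustment of p-values stricter. These percents are therefore not the power of this comparison. With standard errors of this size, a missing call does not show an unchanged level.

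Cycs encodes cytochrome c, which shuttles electrons between complexes III and IV and starts the caspase cascade when it leaves mitochondria. Its level was 39.6, 109 and 41.3 CPM in WT medium and 195, 121 and 182 CPM in WT LPS. All WT LPS libraries lay above all WT medium libraries. The log2 fold was 1.93 ± 0.55 (SE), an adjusted p of 0.0304 by edgeR's quasi-likelihood test, Benjamini-Hochberg adjusted. Leaving out a single library ended the call for 6 of 12 libraries (WT medium 1 or 3, WT LPS 1 or 3, or those labelled KO medium 1 or 2), with log2 folds of 1.63 to 2.72 and a highest adjusted p of 0.115. Part of the Cycs sequence is shared: 26.2% of its 31-base stretches occurred in Gm10053, annotated on chromosome 19 as protein coding, with 27 to 200 counts per library beside 624 to 4065 for Cycs.

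Atp5s, a gene named for a coupling factor of ATP synthase, was at 2.66, 5.89 and 4.14 CPM in WT medium and at 0.995, 1.24 and 0.669 CPM in WT LPS. The groups did not overlap, and 8 to 77 counts lay behind each value. The log2 fold was -1.59 ± 0.49 (SE; adjusted p = 0.0415 by edgeR's quasi-likelihood test, Benjamini-Hochberg adjusted). The call was lost in 7 of the 12 fits without a library, namely WT medium 2 or 3, any WT LPS library, KO medium 1 or KO LPS 2, with an adjusted p of up to 0.157. It was also lost without the filter on low counts (0.0592) and without the library of each group that leaned most to short transcripts, a measure described with the spread between libraries (0.114).

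Cyc1, the cytochrome c1 of complex III that hands electrons to cytochrome c, gave no call. It stood at 56.5, 88.1 and 52.5 CPM in WT medium and at 52.4, 45.5 and 41.1 CPM in WT LPS, so that the highest WT LPS library lay just under the lowest WT medium library, and once the libraries were scaled the log2 fold was 0.05 ± 0.36 (SE). The CPM levels of the mitochondrial genes that follow are not scaled by the TMM factors. Those factors ran from 1.10 to 1.46 in WT medium and from 0.765 to 1.02 in WT LPS. mt-Nd5 was at 1498, 1182 and 1483 CPM in WT medium and at 689, 647 and 555 CPM in WT LPS. Once the libraries were scaled, its log2 fold was -0.53 ± 0.25 (SE; adjusted p = 0.172 by edgeR's quasi-likelihood test, Benjamini-Hochberg adjusted). mt-Co1 overlapped, at 7370.5, 3135 and 7065 CPM against 3127, 4287 and 3183, with a log2 fold of -0.11 ± 0.48.

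How the libraries were scaled set the direction of these counts. With library totals alone, the median log2 fold of all genes tested was -0.64 in place of -0.06. On that scale 30.6% of all genes were called, and 24.5% of those rose. Among the members 1 nuclear gene rose and 9 fell, beside 2 mitochondrial genes that fell (mt-Nd2 and mt-Nd5). The median of the nuclear members less that of all genes was -0.03 with TMM factors and -0.02 with library totals, and that of the mitochondrial members was -0.25 and -0.28. WT medium 2 also set the sign of the nuclear median, which was 0.55 without that library and -0.52 without WT LPS 1. Without WT medium 2, 19.8% of all genes were called, and 3 nuclear members rose and none fell. They were Cycs (log2 fold 2.72), Ndufs4 (1.72) and Cox6a2 (2.99), with adjusted p-values of 0.00515, 0.0287 and 0.0258 by the same edgeR test.

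**Figure D3:**
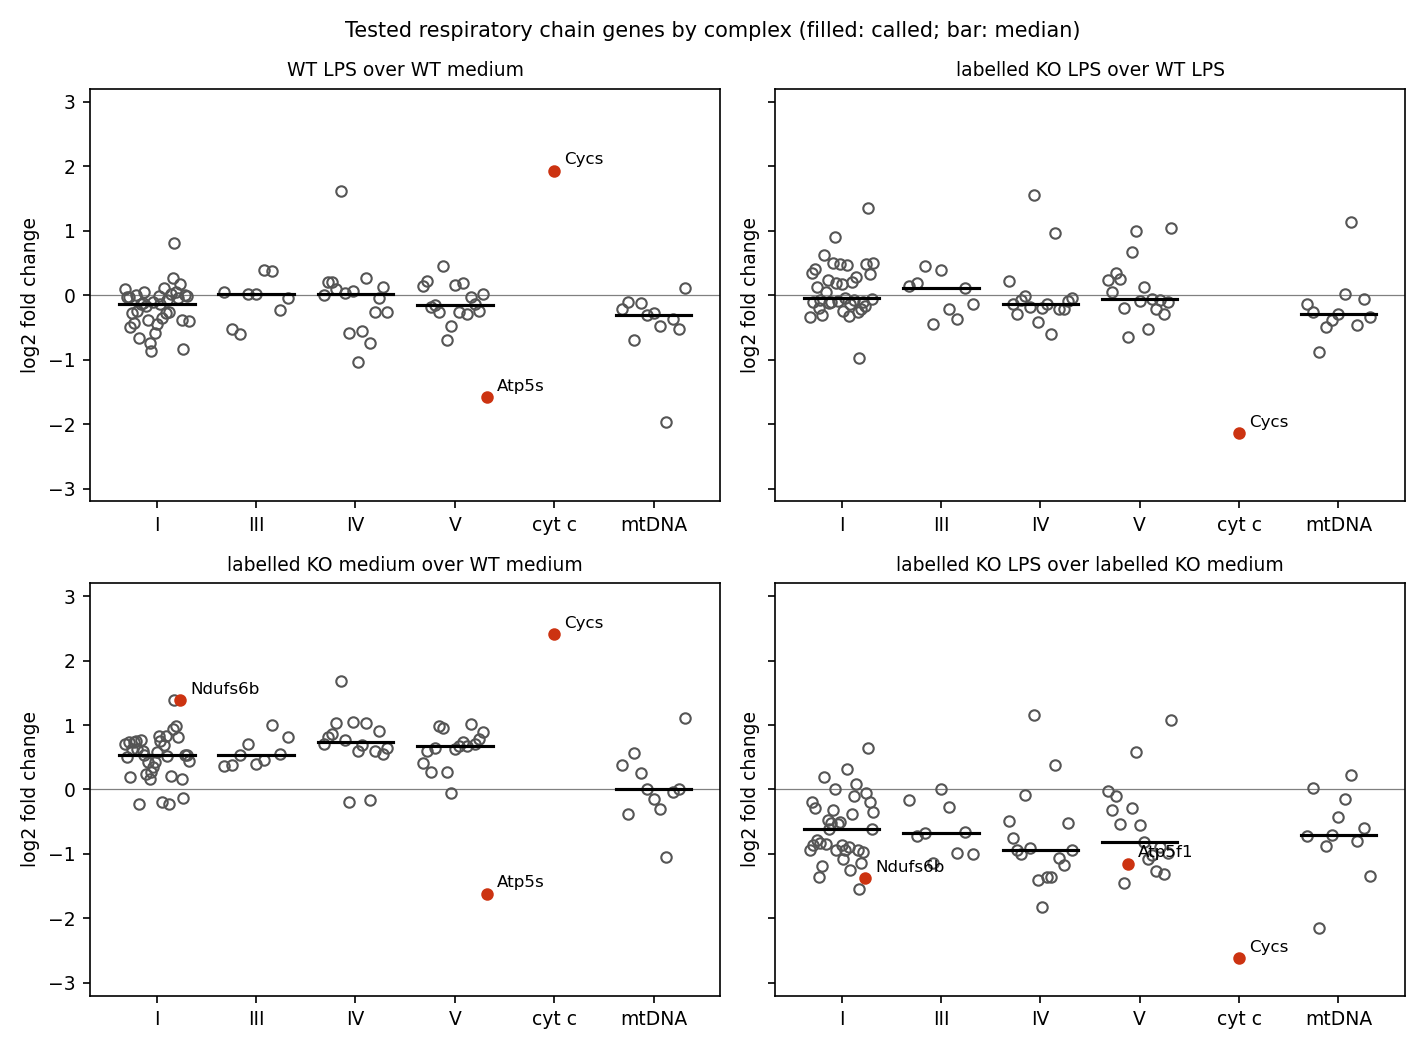
Log2 fold change of each tested member, by complex for the nuclear genes (I, III, IV, V and cytochrome c) and together for those of mitochondrial DNA (mtDNA), in 4 comparisons; filled red points passed the edgeR test and are named, and bars are medians. Cycs is the called member with the largest change in each panel, up in the upper and lower left and down on the right, while the medians of complexes I to V lie between -0.15 and 0.12 in the upper panels.

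Under LPS, the libraries labelled KO were compared with WT. Of all genes tested 24.1% were called, against 1 of 80 nuclear members. Cycs fell: its level was 195, 121 and 182 CPM in WT LPS against 92.7, 34.0 and 37.8 where the label is KO LPS, without overlap. The log2 fold was -2.14 ± 0.56 (SE; adjusted p = 0.0167 by edgeR's quasi-likelihood test, Benjamini-Hochberg adjusted). The call was lost without WT LPS 1 or 3 or without KO LPS 2 or 3, with an adjusted p of up to 0.0747. No mitochondrial gene was called by edgeR or DESeq2, and none had an unadjusted p under 0.05. Median log2 folds were -0.07 for the nuclear and -0.30 for the mitochondrial members, and 0.06 for all genes tested. Both signs turned without WT LPS 1, where the nuclear median was 0.39 and the mitochondrial 0.08, and without WT LPS 2 they were -0.29 and -0.59.

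Several nuclear members lay close to the threshold in that comparison. Atp5g2, a gene for the ring subunit c, was at 47.3, 25.4 and 27.0 CPM in WT LPS and at 98.5, 98.7 and 94.4 where the label is KO LPS, without overlap. Its log2 fold was 0.99 ± 0.38 (SE; adjusted p = 0.081 by edgeR's quasi-likelihood test, Benjamini-Hochberg adjusted). DESeq2 called it (adjusted p = 0.0381), and so did edgeR without the filter on low counts (0.0474). Ndufs8, an iron-sulfur subunit of complex I that was picked for its value here, was at 76.2, 88.5 and 91.4 CPM against 35.6, 17.0 and 15.3, with a log2 fold of 1.35 ± 0.50 and an adjusted p of 0.0699 by edgeR's quasi-likelihood test, Benjamini-Hochberg adjusted. Cox7a2l, which helps complexes III and IV to join into supercomplexes, was at 173, 265 and 262 CPM against 117, 55.9 and 68.7, a log2 fold of 0.97 ± 0.40 (adjusted p = 0.0969 by the same edgeR test). All 3 genes had groups that did not overlap in CPM, and none passed the test as run. CPM is not scaled by the TMM factors, which ran from 0.765 to 1.02 in WT LPS and from 1.20 to 1.24 in the libraries labelled KO LPS. With library totals alone the median of all genes tested moved to 0.57. On that scale 34.0% of all genes were called, and 74.5% of those rose, while 13 nuclear members rose and 1 fell. Less the median of all genes, the nuclear median was -0.14 with TMM factors and -0.09 with library totals. Without WT medium 2 or without WT LPS 1 there were 3 nuclear calls, without KO LPS 1 there were 2, and without WT LPS 3, KO LPS 2 or KO LPS 3 none. With all libraries 24.1% of all genes were called. The shares of all genes in those smaller fits are not given here.

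**Figure D4:**
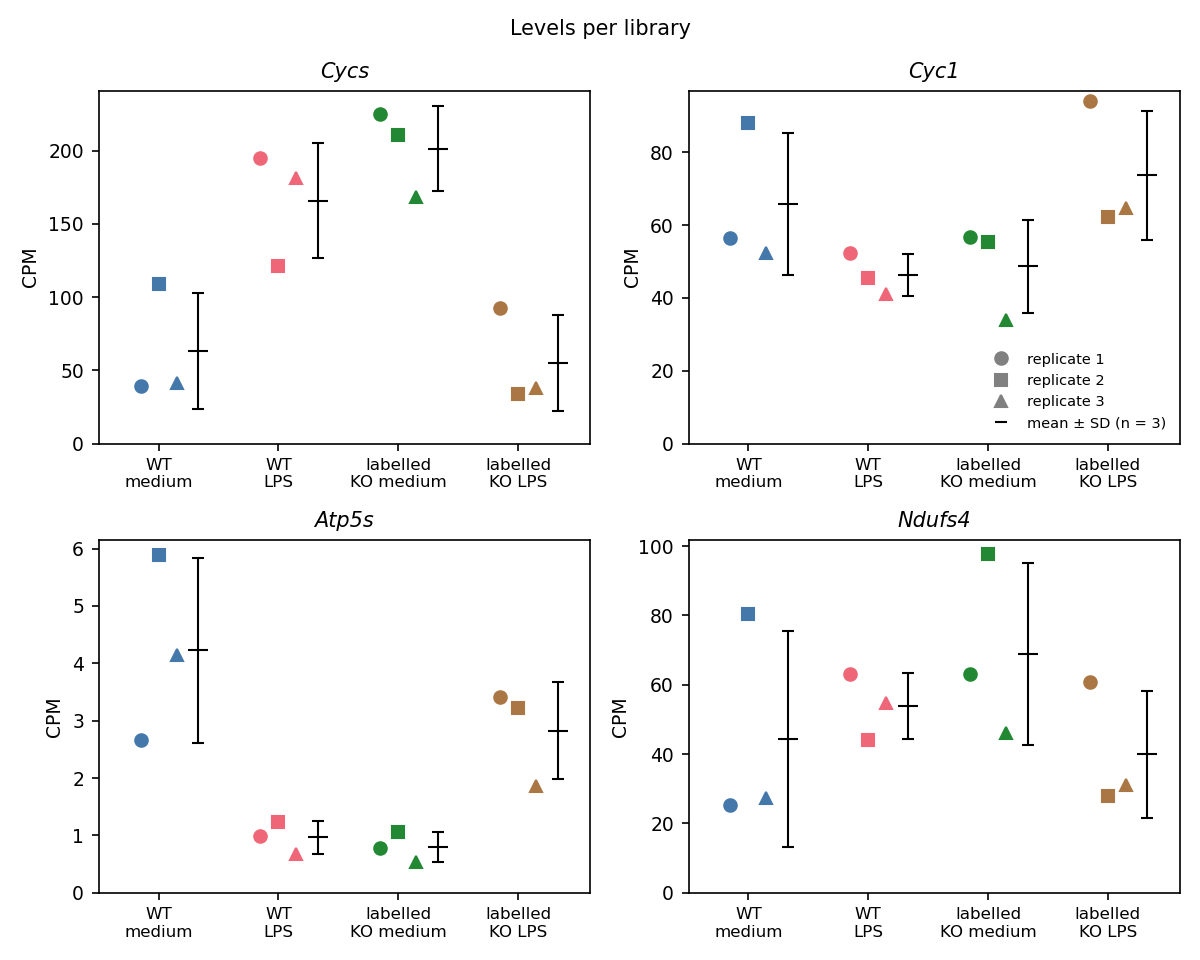
CPM of Cycs, Cyc1, Atp5s and Ndufs4 in each library by labelled group; symbols stand for replicate numbers and bars for the mean ± SD of 3. Cycs lies between 121 and 225 CPM in WT LPS and in the libraries labelled KO medium and between 34.0 and 109 in the others, while Cyc1 runs from 33.9 to 94.0 CPM, highest in the first library labelled KO LPS.

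In medium, KO-labelled libraries were compared with WT. Of all genes tested 26.3% were called, against 3 of 80 nuclear members, while no mitochondrial gene was called by edgeR or DESeq2 and none had an unadjusted p under 0.05. Cycs rose: it was at 39.6, 109 and 41.3 CPM in WT medium and at 225, 211 and 169 in the libraries labelled KO medium, a log2 fold of 2.42 ± 0.56 (SE; adjusted p = 0.00885 by edgeR's quasi-likelihood test, Benjamini-Hochberg adjusted). The call held in all 12 fits without a library. Atp5s fell, from 2.66, 5.89 and 4.14 CPM in WT medium to 0.775, 1.06 and 0.539 in the libraries labelled KO medium, without overlap (log2 fold -1.61 ± 0.49, SE; adjusted p = 0.0316 by edgeR's quasi-likelihood test, Benjamini-Hochberg adjusted). That call was lost without WT medium 2 or 3 or KO medium 1 or 3, with an adjusted p of up to 0.097, and without the library richest in short transcripts of each group (0.0548). The pseudogene Ndufs6b, which shares 45.3% of its 31-base stretches with its parent Ndufs6, was called as well (log2 fold 1.39 ± 0.47; adjusted p = 0.046 by the same edgeR test), although its groups overlapped at 1.28, 2.52 and 1.89 CPM against 2.54, 4.18 and 1.75. It was lost in 8 of the 12 fits without a library and in 13 of the 20 alternatives, with an adjusted p of up to 0.279.

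In this comparison 72 of 80 nuclear members had a log2 fold above 0, with a median of 0.63, against -0.02 for all genes tested and 0.00 for the mitochondrial members. The nuclear median was 1.41 without WT medium 2 and 0.15 without KO medium 2. Library WT medium 2 decided how many passed. Without it 36 of 80 nuclear members were called, all of them higher in the libraries labelled KO medium, and 33.3% of the 14215 genes then tested were called. They were 15 of 37 in complex I, 2 of 9 in complex III, 8 of 16 in complex IV, 10 of 17 in complex V, and Cycs, whose log2 fold was then 3.22 ± 0.53 (SE). The mitochondrial gene called in that fit was mt-Nd6. With library totals alone the median of all genes tested was -0.85. On that scale 48.2% of all genes were called, and 16.1% of those rose. Among the members 1 nuclear gene rose and 7 fell beside 2 mitochondrial genes that fell. The sign of the nuclear median (-0.14 on that scale) turned, while its distance from all genes was 0.65 with TMM factors and 0.70 with library totals.

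Among the libraries labelled KO, those labelled LPS were compared with those labelled medium. Of all genes tested 30.4% were called, against 3 of 80 nuclear members, which all fell, and no mitochondrial gene by edgeR (2 had an unadjusted p under 0.05, and DESeq2 called 2, mt-Nd5 and mt-Co2). Cycs went from 225, 211 and 169 CPM to 92.7, 34.0 and 37.8, a log2 fold of -2.62 ± 0.57 (SE; adjusted p = 0.00523 by edgeR's quasi-likelihood test, Benjamini-Hochberg adjusted), and the call held in all 12 fits without a library. Atp5f1, subunit b of the stalk that holds the ATP synthase head in place, went from 223, 274 and 171 CPM to 241, 138 and 128, with overlap (log2 fold -1.15 ± 0.41; adjusted p = 0.0496 by the same edgeR test). Ndufs6b fell by 1.37 on the log2 scale, also with overlap (adjusted p = 0.0424 by the same edgeR test). The latter calls were lost in 8 and in 7 of the 12 fits without a library. The median log2 fold was -0.80 over the nuclear and -0.70 over the mitochondrial members against 0.04 over all genes tested, with 10 of 80 and 2 of 11 above 0. Without a single library the nuclear median ran from -1.17 (without KO medium 3) to -0.33 (without KO medium 2) and the mitochondrial from -0.92 to -0.42. Without WT medium 2 there were 6 nuclear calls, all falls, where 33.3% of all genes were called. With library totals alone the median of all genes tested was 0.78. On that scale 47.1% of all genes were called, and 81.9% of those rose, while 12 nuclear members rose and 1 fell.

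A further pair of comparisons crossed the labels. The libraries labelled KO medium against WT LPS gave 0.00% of genes called, and no member among the 91 tested, by edgeR or DESeq2. Unadjusted p-values under 0.05 were found for 269 genes and for 1 nuclear member. The nuclear median was 0.72 and the mitochondrial 0.38, with 79 of 80 nuclear members above 0, and the nuclear median ran from 0.36 without KO medium 2 to 1.16 without WT LPS 1. The libraries labelled KO LPS against WT medium also gave 0.00% of genes called and no member, where 1135 genes and 1 mitochondrial member had an unadjusted p under 0.05 and DESeq2 called 41 genes, none of them a member. There the nuclear median was -0.10 and the mitochondrial -0.59, and all 11 mitochondrial genes had a log2 fold below 0. Without WT medium 2 the nuclear median turned to 0.65 and the mitochondrial was -0.29, and without KO LPS 1 they were -0.40 and -0.81. For Cycs the log2 folds of these comparisons were 0.48 ± 0.54 and -0.21 ± 0.54 (SE), and for Atp5s -0.03 ± 0.50 and -0.54 ± 0.47. These 6 comparisons between groups share libraries and are not independent of one another.

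The interaction asked whether the change from medium to LPS differed between the labels. It was called for 41.1% of all genes tested and for 4 of 80 nuclear members. No mitochondrial gene was called by edgeR or DESeq2, and none had an unadjusted p under 0.05. For Cycs the difference of the LPS changes, KO label minus WT, was -4.56 ± 0.79 (SE; adjusted p = 0.000776 by edgeR's quasi-likelihood test, Benjamini-Hochberg adjusted), and for Atp5s it was 2.66 ± 0.69 (adjusted p = 0.00916 by the same edgeR test). Both calls held in all 20 alternatives. Ndufs4, an accessory subunit needed to complete complex I, had -2.36 ± 0.79 (adjusted p = 0.0312 by the same edgeR test). It stood at 25.3, 80.4 and 27.4 CPM in WT medium, 63.1, 44.0 and 54.8 in WT LPS, 63.2, 97.6 and 46.2 in the libraries labelled KO medium, and 60.8, 27.8 and 31.1 in those labelled KO LPS, and all groups overlapped. Atp5f1 had -1.60 ± 0.57 (adjusted p = 0.0408 by the same edgeR test). The calls of Ndufs4 and Atp5f1 were each lost in 8 of the 12 fits without a library. Without WT medium 2, 1 nuclear member was positive and 18 negative, where 44.1% of all genes were called. With library totals alone 18 were positive and 1 negative, where 59.1% of all genes were called and 81.1% of those were positive.

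Isoform pairs gave few differences. The liver-type forms Cox6a1, Cox6b1, Cox7a2 and Cox8a and the common Cox4i1 had log2 folds between 0.01 and 0.27 for LPS in WT, with standard errors of 0.43 to 0.62, and between -0.60 and 0.21 for the KO label under LPS. Cox6a2 was near the floor, at 0.256, 0.917 and 0.0609 CPM in WT medium and 0.929, 1.10 and 0.608 in WT LPS. Its log2 fold of 1.61 ± 0.82 (SE) did not pass the test. Cox6b2 had 1.56 ± 0.64 (SE) for the KO label under LPS, from 0.505, 1.53 and 1.75 CPM against 0.332, 0.191 and 0.365, an adjusted p of 0.096 by edgeR's quasi-likelihood test, Benjamini-Hochberg adjusted. Cox7a1 had -0.55 ± 0.99 and -0.13 ± 1.00 in the 2 comparisons. Ndufa4, now counted with complex IV, had -0.26 ± 0.64 and -0.04 ± 0.64. For ATP synthase, Atp5g1 had -0.69 ± 0.64 and 0.67 ± 0.64, and Atp5g3 0.16 ± 0.43 and -0.09 ± 0.43.

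The remaining mitochondrial genes can be given in the same order of groups, WT medium, WT LPS, KO medium label and KO LPS label. mt-Nd1 was at 1542, 2228 and 1676 CPM, then 1296, 653 and 984, then 1093, 752 and 986, then 1653, 1256 and 607. mt-Cytb was at 1678, 2068 and 1845 CPM, then 1282, 724 and 951, then 1328, 790.1 and 1108, then 1713, 1024 and 578. Before scaling by the TMM factors, the WT medium libraries of both genes stood above those of WT LPS and of the KO medium label. The KO LPS label overlapped all groups. In unscaled CPM mt-Nd2 and mt-Nd4, of complex I, were also higher in WT medium than in WT LPS. Their lowest WT medium libraries were at 849 and 787 CPM and their highest WT LPS libraries at 511 and 589. Their log2 folds for LPS in WT were -0.47 ± 0.31 and -0.37 ± 0.47 (SE), and neither was called. For mt-Nd2 the libraries labelled KO LPS, at 761, 683 and 460.5 CPM, all lay below WT medium. mt-Nd6, encoded on the other strand, was at 6.30, 24.5 and 6.03 CPM, then 15.9, 3.58 and 7.42, then 19.9, 20.2 and 7.35, then 10.5, 9.0 and 12.5, with overlap throughout. mt-Co2 was at 12.4, 49.99 and 8.59 CPM, then 19.0, 3.82 and 7.18, then 19.8, 36.8 and 7.08, then 15.5, 4.97 and 4.08. The groups overlapped in each comparison, and its log2 folds had standard errors of 0.90 to 0.94 in the comparisons of 2 groups with the same genotype or treatment label. mt-Nd3 ran from 0.0954 to 2.68 CPM over all libraries, close to the floor, with a log2 fold of -1.97 ± 0.99 for LPS in WT that did not pass the test. mt-Co3 and mt-Atp6 ran from 3.17 to 20.5 and from 2.67 to 10.1 CPM, with log2 folds of -0.12 ± 0.71 and -0.21 ± 0.50 in that comparison.

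Libraries of 1 group also differed by a measure that no member enters. Each gene's log2 level was centred on all libraries. For each library the median over 124 short protein-coding genes (under 1000 exon bases) was set against that over 4693 long ones (4000 or more). In each group 1 library leaned most to short genes: WT medium 2 (0.99, against -0.91 and -0.91), WT LPS 1 (0.49, against -0.71 and -0.17), KO medium label 2 (1.29, against 0.73 and -0.23) and KO LPS label 1 (0.39, against -0.39 and -0.40). In those libraries the nuclear members were high as well. In WT medium 2 their level lay above the mean of the other 2 libraries for all 21 members under 1000 exon bases (median log2 difference 1.33) and for 57 of 59 longer ones (1.11). The same medians were 0.88 and 0.83 for KO medium label 2, 0.79 and 0.70 for WT LPS 1, and 0.74 and 0.56 for KO LPS label 1. Atp5e, the smallest subunit of the ATP synthase head, went with Atp5b, a large one, at a ratio of counts of 0.120, 0.382 and 0.117 in WT medium and between 0.0867 and 0.522 over all libraries.

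The ratio of mt-Co1 to mt-Cytb counts was 4.39, 1.52 and 3.83 in WT medium, 2.44, 5.92 and 3.35 in WT LPS, 1.89, 0.924 and 3.90 in the libraries labelled KO medium, and 2.23, 5.11 and 6.04 in those labelled KO LPS. In each group the library leaning most to short genes had the lowest ratio. Mitochondrial ribosomal RNA took 0.208% of counts in WT medium 2 and 0.062% and 0.0647% in the other WT medium libraries. The part of this measure in the comparisons above was not tested. Without the library richest in short transcripts of each group, an alternative chosen after seeing the data, 32 nuclear members rose in the libraries labelled KO medium against WT medium and 13 fell from the KO medium to the KO LPS label. In that fit 36.4% and 41.0% of all 14122 genes tested were called in these comparisons, so the nuclear shares, 32 and 13 of 80, were near and below those of all genes. Cycs kept its 5 calls there, while Atp5s kept that of the interaction and lost both others.

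**Figure D5:**
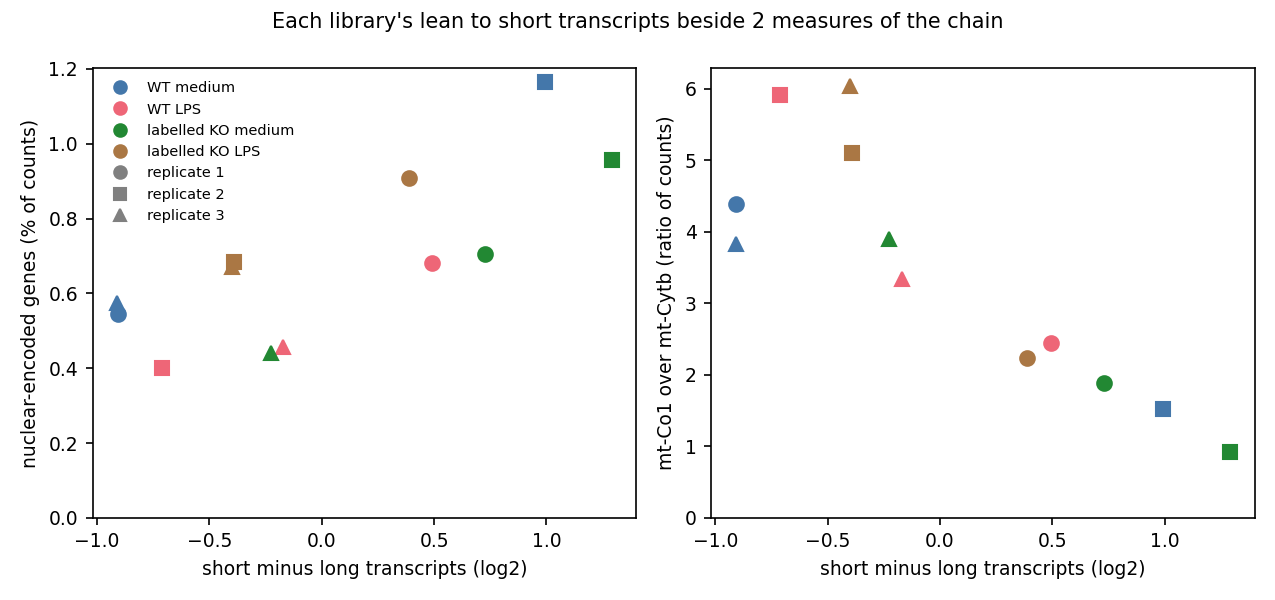
Percent of counts on the nuclear-encoded genes (left) and the ratio of mt-Co1 to mt-Cytb counts (right) against each library's lean to short transcripts. The lean is the median log2 level of short less that of long protein-coding genes that are not members. Colours are labelled groups, and symbols are replicate numbers. WT medium 2 lies at 0.99 with a nuclear share of 1.16%, and the other WT medium libraries at -0.91 with 0.544% and 0.575%.

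Other genes of the pathway were counted by list. Among all genes tested, 18.3% were called for LPS in WT and 24.1% for the KO label under LPS. No gene of complex II, the succinate dehydrogenase, was called for LPS in WT (0 of 4) or for the KO label under LPS (0 of 4), with medians of -0.12 and 0.29, and none had an unadjusted p under 0.05 by edgeR. Of 15 tested complex I assembly factors 1 fell with LPS in WT and 1 rose for the KO label under LPS, in both cases Tmem186 (log2 folds -1.35 ± 0.29 and 1.44 ± 0.29). Of 5 tested complex III factors 1 fell in the former, and 1 rose and 1 fell in the latter. Bcs1l, which inserts the Rieske protein, had -1.05 ± 0.30 and 1.39 ± 0.30. Of 23 tested complex IV factors 3 rose with LPS and 4 fell for the KO label. Sco1, a copper chaperone for complex IV, went from 10.0, 8.87 and 10.6 CPM in WT medium to 52.0, 44.1 and 86.2 in WT LPS and stood at 10.8, 10.3 and 7.58 in the libraries labelled KO LPS (log2 folds 3.25 ± 0.34 and -3.21 ± 0.34). Coa5 had 1.45 ± 0.26 and -1.26 ± 0.26.

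Genes that act on the mitochondrial DNA and its RNA were called in both directions: 1 of 21 tested rose and 4 fell with LPS in WT, and 3 rose and 1 fell for the KO label under LPS. These numbers were near the shares of all genes called in these comparisons, 18.3% and 24.1%. Polrmt, the RNA polymerase that transcribes the 13 mitochondrial genes, was at 20.8, 11.5 and 21.6 CPM in WT medium, 3.85, 6.25 and 1.64 in WT LPS and 16.0, 22.7 and 23.4 in the libraries labelled KO LPS. Its log2 folds were -1.62 ± 0.41 and 1.93 ± 0.41 (SE; adjusted p = 0.0164 and 0.00611 by edgeR's quasi-likelihood test, Benjamini-Hochberg adjusted). Pnpt1, a ribonuclease of mitochondria, had 1.78 ± 0.37 and -2.21 ± 0.38. Among 10 tested nuclear regulators 2 rose and 1 fell with LPS, and 1 rose and 3 fell for the KO label. Hif1a had 1.90 ± 0.50 and -2.88 ± 0.52, and Pprc1, a PGC-1 related coactivator, -0.89 ± 0.24 and 1.16 ± 0.24. Of 13 other respiratory genes 2 rose and 3 fell with LPS, and 5 rose and 1 fell for the KO label. Gpd2, which feeds electrons from glycerol phosphate into the chain, had 2.47 ± 0.37 and -2.07 ± 0.37, and Coq9, of ubiquinone synthesis, -1.12 ± 0.28 and 1.48 ± 0.29. The assembly factor of ATP synthase list (4 genes) and the inhibitor Atpif1 had no edgeR call in these 2 comparisons, and the 2 mitochondrial ribosomal RNAs had none either, all without an unadjusted p under 0.05. The RNAs had medians of 1.15 and -1.12.

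Markers of cell types were summed in CPM, not scaled by the TMM factors. Those factors were higher in WT medium and in the KO LPS label than in the other groups. The summed level of the 8 macrophage markers was 32183 to 35761 CPM in WT medium, 12620 to 19337 in WT LPS, 10062 to 12947 in the libraries labelled KO medium and 21231 to 34432 in those labelled KO LPS. For LPS in WT 1 of the 8 rose, and for the KO label under LPS 1 rose and 2 fell. The shares of all genes called in these comparisons were 18.3% and 24.1%. The 10 neutrophil and granule genes summed to 829 to 1228 CPM in WT medium, 956 to 4376 in WT LPS, 1091 to 3106 in the libraries labelled KO medium and 1103 to 6898 in those labelled KO LPS. Of 9 tested, 2 rose with LPS in WT and 3 for the KO label under LPS. In the latter comparison 2 of 5 tested B cell genes and 2 of 4 megakaryocyte genes rose as well, and 3 of 7 stromal genes fell. The 6 B cell genes summed to at most 86.5 CPM, the 7 stromal genes to 28.7 to 266 CPM and the 5 megakaryocyte genes to 143 to 784 CPM, while the erythroid, dendritic and T and NK cell lists reached at most 7.52, 38.0 and 10.5 CPM. The part of other cells in the members' levels was not tested, and fewer cells of a type and less RNA per cell cannot be told apart in such bulk libraries.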

How the data were processed

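Macrophages of 12 mouse samples in 4 labelled groups were analysed. The authors deposited whole-number read counts per gene, not normalized, and FPKM values, which were those counts scaled by library total and gene length (checked to within 0.0034%), so both tables are 1 measurement. The build is mm10, per the submitters' processing notes. Neither the aligner nor the counter, nor its use of strand, is named in these sources, so overlapping and near-identical genes are uncertain. Both a TruSeq and a KAPA stranded kit are named in the labels' protocols. Positions came from GENCODE M21 (GRCm38), which held all 101 members.

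The samples were grouped by label. The counts went into edgeR 4.0.16 under R 4.3.3 (glmQLFit and glmQLFTest, filterByExpr, TMM factors, 1 mean per group over all 12 libraries); 13773 genes were tested, and p-values were adjusted over all of them by Benjamini-Hochberg. Standard errors were derived from the test statistic. The filter left out 10 members with at most 12 counts in any library, among them mt-Nd4l and mt-Atp8. The test was checked on simulated counts with 100 genes changed 2-fold and 100 changed 4-fold in WT LPS. It recovered 7% and 68% of them, and 3.85% of its calls were false. The alternatives were library totals alone, DESeq2 1.42.0, scaling without mitochondrial chromosome genes, 2 other filters on low counts, a replicate block, leaving out each library, and 2 chosen after the data were seen. CPM levels are unscaled counts per 1000000, and overlap of groups was judged on them. All mitochondrial members, the 2 largest called rises and falls without overlap in each comparison of 2 groups, the 2 smallest p-values per complex and a set of isoforms were named, and genes outside that rule are said to be so or belong to a called list. The members, lists and tests were chosen with earlier results of these data known. Library totals of 13082947 to 20960505 counts set the precision. No column of the tables was without a sample. Software for tables and figures was Python 3.11.15, pandas 2.3.3 and matplotlib 3.10.9.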

Additional observations from a re-analysis of the deposited data

Results flagged for a closer look

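For 4 of 80 tested nuclear members the change from medium to LPS differed between the labels by the interaction test (edgeR's quasi-likelihood test, Benjamini-Hochberg adjusted, KO label minus WT on the log2 scale). That share is below the 41.1% called over all genes tested. The differences were -4.56 for Cycs (adjusted p = 0.000776), 2.66 for Atp5s (0.00916), -2.36 for Ndufs4 (0.0312) and -1.60 for Atp5f1 (0.0408). Cycs was high and Atp5s low in WT LPS and in the libraries labelled KO medium, the same libraries in which Nos2 was high. Whether the medium and LPS labels of the KO libraries were exchanged was not tested, and these differences hold for the labels as deposited. Groups of 3 are too small for a search for single outlying libraries.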

How the results depend on the processing

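No called member changed sign in any alternative run, and the interaction calls of Cycs and Atp5s held under all 20 alternatives. The numbers of called nuclear members moved most. With library totals alone they were 10 (LPS in WT), 14 (KO label under LPS), 8 (KO label in medium), 13 (LPS label in KO) and 19 (interaction), and those of mitochondrial members 2, 0, 2, 0 and 3. DESeq2 gave 3 nuclear calls for the KO label under LPS and 5 in medium, and 1 and 2 mitochondrial calls for LPS in WT and for the LPS label in KO. It called 31.7%, 33.5%, 25.7% and 37.4% of all genes in these comparisons, in that order. Without the filter on low counts the nuclear calls were 1, 3 and 5 (LPS in WT, KO label under LPS, LPS label in KO), with 1 mitochondrial call in the last. That setting called 9.78%, 12.7% and 15.8% of all genes. With the gene length trend removed, an alternative chosen after seeing the data, the nuclear calls were 5, 7 and 9 (KO label under LPS, LPS label in KO, interaction). The shares of all genes called were then 28.0%, 33.7% and 44.7%. Without the library richest in short transcripts of each group, also chosen after seeing the data, they were 8, 32, 13 and 18 (KO label under LPS and in medium, LPS label in KO, interaction), with 1 and 3 mitochondrial calls for the KO label in medium and the LPS label in KO. For 32 and 13 the shares of all genes in that fit are given above. For 8 and 18 they are not given here. The main fit called 24.1% of all genes for the KO label under LPS and 41.1% for the interaction. Over all genes, library totals alone gave 4220 calls in place of 2526 for LPS in WT, 6643 in place of 3620 for the KO label in medium and 6491 in place of 4186 for the LPS label in KO, which are 30.6%, 48.2% and 47.1% of the genes tested. For the KO label under LPS and the interaction, library totals alone called 34.0% and 59.1%. The cause was not tested, apart from the fewer libraries or other genes that some settings use by construction.

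Leaving out each library in turn gave 0 to 3 nuclear calls for LPS in WT, 0 to 3 for the KO label under LPS, 1 to 36 for the KO label in medium, 1 to 6 for the LPS label in KO and 2 to 19 for the interaction; the highest came without WT medium 2 in each, and for the KO label under LPS also without WT LPS 1. With all libraries 18.3%, 24.1%, 26.3%, 30.4% and 41.1% of all genes were called in these comparisons, in that order. The shares without WT medium 2 are given with each comparison above, except for the KO label under LPS. Mitochondrial calls were 0 to 1 in the comparison of the KO label in medium, the LPS label in KO and the interaction and 0 elsewhere. Cycs lost its call in 6 and 4 of 12 such fits for LPS in WT and the KO label under LPS. The nuclear to mitochondrial log2 ratio, taken from mean log2 CPM in place of summed counts, was -1.29 for WT medium, -1.03 for WT LPS, -0.81 for the KO medium label and -0.71 for the KO LPS label.

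Whether the replicate numbers pair the samples is not stated in the labels. Deviations of same-numbered libraries correlated between -0.63 and 0.57, and those of differently numbered ones between -0.62 and 0.64. These correlations cannot decide the question. With the replicate block the LPS label in KO had 1 nuclear call in place of 3, where 26.3% of all genes were called in place of 30.4%. Ndufs6b also lost its call for the KO label in medium.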
